A study of Homo sapiens with 35 samples.

Results

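ZNF687 is a zinc finger protein of the cell nucleus. Together with ZNF592 and the chromatin reader ZMYND8 it forms the Z3 module, which binds at promoters and enhancers and associates with the NuRD histone deacetylase complex. ZNF532 is a close relative in the same module. Mutations in ZNF687 are known from Paget disease of bone, and the protein has also been linked to the repair of broken DNA.

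Here the effect of lowering ZNF687 on the RNA of HEK293T cells was measured. HEK293T is an established human embryonic kidney cell line that carries the SV40 large T antigen. The 2 tested libraries came from cells transfected with a siPOOL, a mixture of small interfering RNAs directed at 1 transcript, against ZNF687 at 5 nM for 72 h. The 3 control libraries came from cells given a control siPOOL at the same concentration and for the same time. These 5 libraries were all those of 35 in the series that carry the ZNF687 label or its matching control label. The series compared INTS13, a subunit of the Integrator complex that cleaves nascent RNA, with 8 other nuclear proteins. The first of its sets held the control, ZNF687 and 8 further libraries, 2 each for TSPYL2, ZEB1, ZNF608 and ZNF609 depletion. ZMYND8 depletion (2 libraries) and its own 2 controls belonged to another set. The ZNF687, ZMYND8 and control cells of these comparisons were not glucose starved. The 35-library model and the levels given across all 15 groups also include control, HDGF and INTS13 groups kept without glucose for 24 h. The labels name 1 siPOOL for ZNF687, so loss of ZNF687 and any other action of that pool cannot be told apart. The protein was not measured.

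The ZNF687 libraries held 48856845 and 37706894 counted reads, and the control libraries 35511649, 33738473 and 47709275. Libraries were numbered 1 or 2, and libraries of 1 number deviated together across the 6 groups of the set. Control 1 differed from controls 2a and 2b by a chi-square of 90.6 and 107 per degree of freedom across genes, whereas 2a and 2b differed by 4.65. Ribosomal protein genes took 14% of the reads in ZNF687 library 1 and 9.44% in library 2, against 12.6% in control 1, 8.44% in control 2a and 8.45% in control 2b. The number was therefore kept as a block in the model, which estimated a shared shift between the numbers from all 13 libraries of the set. Of 18 genes typical of HEK293 cells, 13 exceeded 1 CPM (counts relative to library size) in all 5 libraries. The marker CPM of this paragraph were not TMM-scaled, whereas CPM in later paragraphs were. Summed marker levels of other cell types were 5.06 to 7 CPM for fibroblasts in ZNF687 libraries and 2.45 to 9.22 CPM in control libraries, and 28.3 to 35.6 CPM for carcinoma epithelium in ZNF687 libraries and 29.1 to 38.1 CPM in control libraries, mostly CDX2. Sums for blood, endothelial and liver cells were at most 1.94 CPM in ZNF687 libraries and at most 2.31 CPM in control libraries.

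The level of ZNF687 itself was lower in both depleted libraries. It stood at 17.4 and 18.03 CPM in ZNF687-depleted cells, against 37.4, 58.6 and 54.5 CPM in control cells. The groups did not overlap, and the low control value was that of number 1. The log2 fold change was -1.42 ± 0.16 (SE; adjusted p = 0.0033, edgeR's quasi-likelihood test), which leaves 37.4% of the control level. By number, 46.5% remained in the number 1 libraries and 31.9% in the number 2 libraries. In bulk RNA, depletion in fewer cells and less RNA per cell cannot be told apart. On the 35-library scale ZNF687 averaged 18.9 ± 0.361 CPM (SD, n = 2) in its own depletion, and the means of the other 14 groups lay between 45.7 CPM in ZEB1 depletion and 74.6 CPM in starved control cells. ZNF687 lies on chromosome 1 from 151281618 to 151292176 (hg38). It overlaps PI4KB and ZNF687-AS1 on the opposite strand, and the strand setting of the counting is not given in the sources used here.

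Beyond ZNF687, 6 genes passed the test. Of 18913 genes tested, 7 were called at an adjusted p under 0.05, which is 0.037% of them. PHTF2 alone rose (0.00529%), and SMARCD2, USP12, LBR, SEMA3C and CEMIP2 fell with ZNF687 (0.0317%). At an unadjusted p under 0.05 there were 1539 genes (8.14%), 738 higher (3.9%) and 801 lower (4.24%). In counts simulated from these libraries, 61.2% of 67 genes changed 1.5-fold were called and all 67 changed 2-fold were called. Of the unchanged genes, 14 were called, with 18704 genes tested in all. Only well expressed genes were changed, and counts were drawn with the model's own spread and number block. A further 66 genes were changed 4-fold, and all 66 were called. With so many changed genes the adjusted threshold is easier to pass than in the real data, where 7 genes were called. Real changes may therefore be called less often, and the simulated shares do not give the power of this comparison. FOS (log2 fold change 1.09) and JUNB (0.97), given below, were not called.

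**Figure D1:**
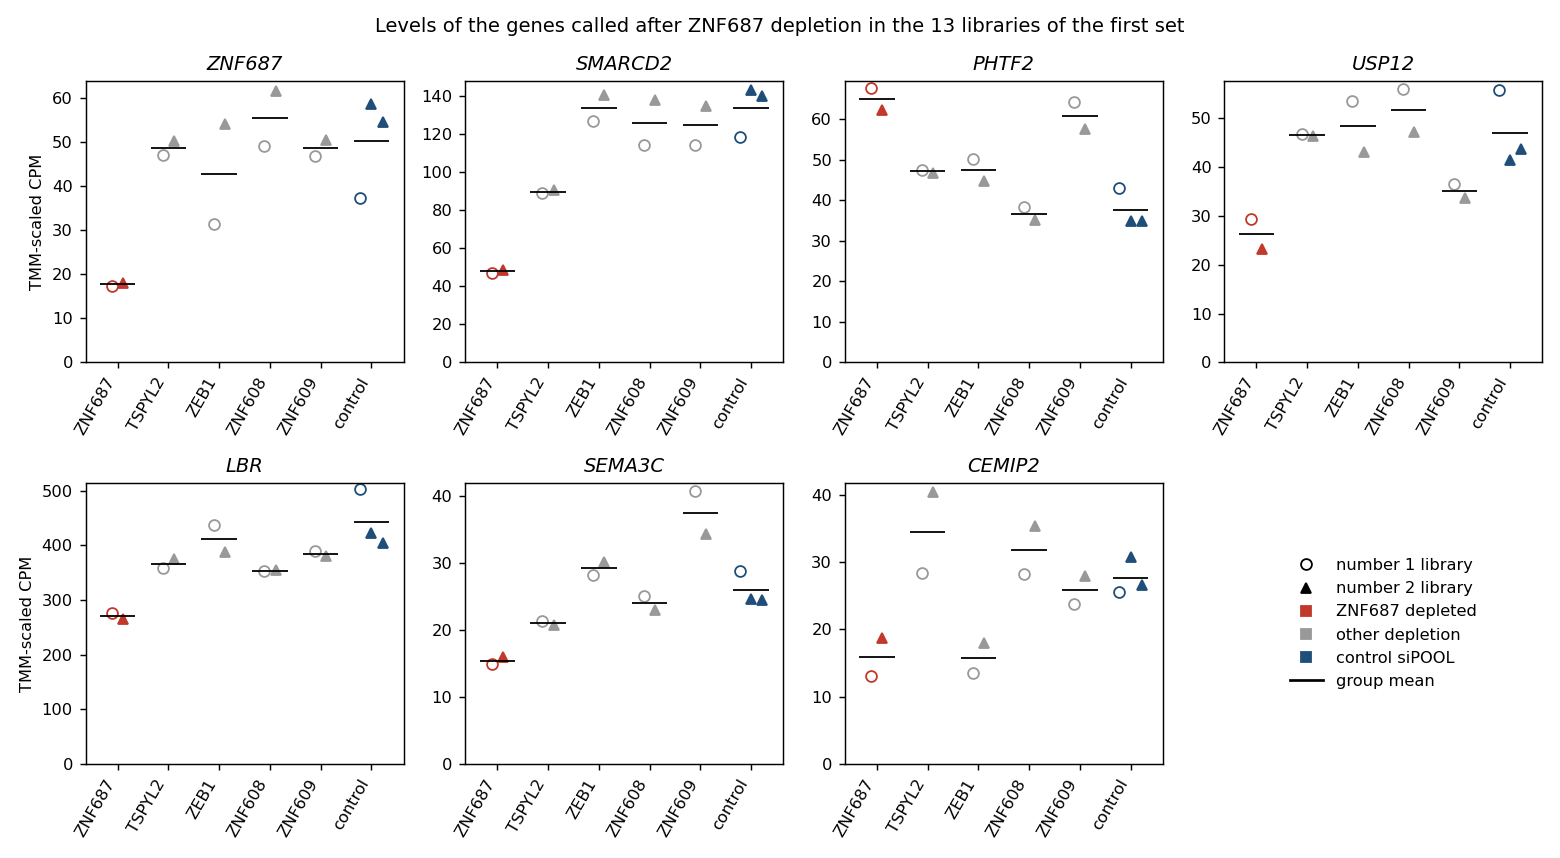
TMM-scaled CPM of the 7 called genes in each of the 13 first-set libraries, with each group on the x axis named by the siPOOL target. Open circles are number 1 libraries, triangles are number 2 libraries and lines are group means. SMARCD2 sits at 47.2 and 48.7 CPM in ZNF687-depleted cells, below every other library, whereas PHTF2 is high in both ZNF687 and ZNF609 depletion.

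SMARCD2 showed the largest change of the called genes. It encodes a subunit of the SWI/SNF chromatin remodelling complexes, which move nucleosomes, and is known for its part in the maturation of granulocytes. It stood at 47.2 and 48.7 CPM in ZNF687-depleted cells, against 118.7, 143.3 and 140.2 CPM in control cells. These are 2083 and 1881 reads in the depleted libraries, against 3919, 5016 and 6986 reads in the controls. Both depleted libraries were far below all 3 controls. The log2 fold change was -1.45 ± 0.10 (adjusted p = 1.48e-05), or 36.6% of the control level, and it was -1.33 in number 1 and -1.54 in number 2 libraries. SMARCD2 therefore fell by as much as the siPOOL target did. Among the 15 groups of the series its mean was lowest here, at 51.2 ± 0.757 CPM (SD, n = 2), and the next lowest was TSPYL2 depletion at 95.3 ± 1.25 CPM (SD, n = 2).

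USP12 encodes a ubiquitin protease that acts with WD-repeat cofactors. It stood at 29.4 and 23.2 CPM in ZNF687-depleted cells, against 55.7, 41.5 and 43.7 CPM in control cells. The depleted libraries lay below every control. The log2 fold change was -0.88 ± 0.11 (adjusted p = 0.00464, 54.5% of control).

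LBR, the lamin B receptor, is a protein of the inner nuclear membrane that tethers heterochromatin and also reduces a sterol double bond. It was the most abundant called gene, at 276 and 265 CPM in ZNF687-depleted cells, against 502, 423 and 403 CPM in control cells. The groups did not overlap, and the log2 fold change was -0.72 ± 0.10 (adjusted p = 0.0251, 60.5% of control).

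SEMA3C encodes a secreted semaphorin, a guidance signal for neurons and vessels. Its level was 14.9 and 15.99 CPM in ZNF687-depleted cells, against 28.8, 24.7 and 24.5 CPM in control cells, with a log2 fold change of -0.76 ± 0.11 (adjusted p = 0.0251, 59.0% of control). CEMIP2 encodes a hyaluronidase of the cell surface. Its level was 13.1 and 18.8 CPM in ZNF687-depleted cells, against 25.5, 30.7 and 26.5 CPM in control cells, with a log2 fold change of -0.75 ± 0.12 (adjusted p = 0.0392, 59.3% of control). For both genes the depleted libraries lay below all controls, and the difference was larger in number 1 than in number 2 libraries.

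PHTF2, named for a putative homeodomain, rose to 67.7 and 62.1 CPM in ZNF687-depleted cells, against 43.1, 34.7 and 34.8 CPM in control cells. Both depleted libraries were above all controls. The log2 fold change was 0.77 ± 0.09 (adjusted p = 0.00458), or 170% of the control level.

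These calls rest on few libraries. SMARCD2 was called without any 1 of the 5 libraries and ZNF687 without any but its own replicate 2 (adjusted p = 0.337). USP12 and PHTF2 kept the call in 2 of the 5 omissions, CEMIP2 in 1, and LBR and SEMA3C in 0, while the direction stayed the same in each case. With controls 2a and 2b summed into 1 library, SMARCD2, ZNF687 and USP12 were called, and PHTF2, LBR, SEMA3C and CEMIP2 were not. With no number in the model SMARCD2 alone was called, and ZNF687 had an adjusted p of 0.503.

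**Figure D2:**
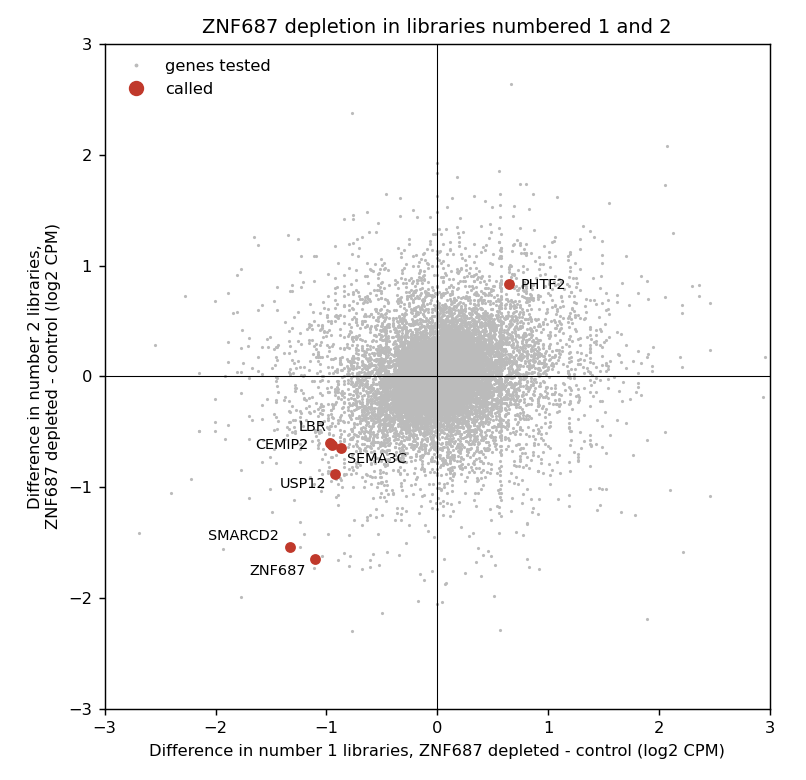
Difference in log2 CPM between ZNF687-depleted and control cells in number 1 libraries (x axis) and number 2 libraries (y axis), 1 grey point for each of 18913 genes. The 7 called genes, in red, lie toward the lower left or upper right, away from the cloud around 0.

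Each number gives its own estimate of the ZNF687 effect, because number 1 has its own control. Across 11416 genes above the abundance floor of a mean log2 CPM of 2, ZNF687 left out, the differences of the 2 numbers correlated with r = 0.317. This is a correlation across genes, which are not independent replicates. ZNF687 and control libraries did not overlap for 3096 genes (16.4%), 1439 higher (7.61%) and 1657 lower (8.76%) in ZNF687-depleted cells. A lack of overlap alone was thus common in these libraries.

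The promoters of 3 lowered genes are shown, since SMARCD2 and USP12 had the largest falls among the called genes other than ZNF687 and SEMA3C was also lower in ZMYND8 depletion. Each run is the 250 bases before the RefSeq start on the gene's own strand (GRCh38.p14), 5′ to 3′, with GGGCGG or its reverse complement CCGCCC, the GC box bound by Sp family factors, in capitals. The SMARCD2 window is chr17:63838729-63838978, the USP12 window chr13:27171812-27172061 and the SEMA3C window chr7:80919052-80919301, all on the minus strand. The SMARCD2 and SEMA3C starts of RefSeq lie inside the longer GENCODE gene bodies, which on the minus strand begin at 63843065 for SMARCD2 and 80922359 for SEMA3C. Which start these cells use was not tested.
SMARCD2: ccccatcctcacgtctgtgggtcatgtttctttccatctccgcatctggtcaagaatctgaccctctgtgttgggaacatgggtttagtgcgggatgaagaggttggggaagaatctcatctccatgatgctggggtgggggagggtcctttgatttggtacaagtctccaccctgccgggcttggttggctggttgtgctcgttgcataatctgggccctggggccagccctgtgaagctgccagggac
USP12: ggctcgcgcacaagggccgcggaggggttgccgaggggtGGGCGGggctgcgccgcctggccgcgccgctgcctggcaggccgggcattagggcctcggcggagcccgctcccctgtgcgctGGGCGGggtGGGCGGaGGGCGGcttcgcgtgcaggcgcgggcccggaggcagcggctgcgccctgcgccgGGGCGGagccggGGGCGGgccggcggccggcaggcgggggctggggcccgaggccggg
SEMA3C: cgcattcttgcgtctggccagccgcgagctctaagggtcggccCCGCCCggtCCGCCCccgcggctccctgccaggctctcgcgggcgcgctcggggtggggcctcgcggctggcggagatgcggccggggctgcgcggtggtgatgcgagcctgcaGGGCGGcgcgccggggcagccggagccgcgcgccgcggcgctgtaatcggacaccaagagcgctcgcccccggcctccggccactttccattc
The GC box occurred 0 times in the SMARCD2 window, 6 times in the USP12 window and 3 times in the SEMA3C window, and 42.6% of 35116 RefSeq promoter windows of this length held it on either strand. GC content was 56.4% for SMARCD2, 84.8% for USP12 and 77.6% for SEMA3C, against a median of 58.0% over all windows. The 3 windows held on neither strand the TATA box TATAAA (10.7% of all windows), the CCAAT box (32.0%) or the cyclic AMP response element TGACGTCA (1.65%). The 3 windows differed in base composition and in the number of GC boxes.

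Genes that just missed the threshold are given with their values only. BMPER, a secreted regulator of bone morphogenetic proteins, stood at 2.81 and 2.79 CPM in ZNF687-depleted cells, against 5.33, 5.34 and 5.38 CPM in control cells (log2 fold change -0.90 ± 0.14, adjusted p = 0.0543). TDG, the thymine DNA glycosylase of base excision repair, stood at 60.2 and 57.4 CPM in ZNF687-depleted cells, against 116.1, 92.3 and 85.6 CPM in control cells (-0.75 ± 0.12, adjusted p = 0.063). SOX4, a transcription factor of progenitor cells, stood at 62.7 and 100.9 CPM in ZNF687-depleted cells, against 117.3, 157.8 and 151.9 CPM in control cells (-0.74 ± 0.13, adjusted p = 0.063). In all 3 genes the groups did not overlap, which was a condition for naming them here.

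On the higher side, HSPB1, a small heat shock protein, stood at 36.6 and 35.3 CPM in ZNF687-depleted cells, against 21.7, 25.7 and 25.7 CPM in control cells (0.58 ± 0.10, adjusted p = 0.0741). FOS, an immediate early transcription factor, stood at 10.6 and 4.17 CPM in ZNF687-depleted cells, against 4.39, 2.63 and 2.01 CPM in control cells (1.09 ± 0.20, adjusted p = 0.0849). The FOS values overlapped between groups, and each depleted library was above the controls of its own number. SNHG16, a long noncoding RNA that hosts small nucleolar RNAs, stood at 516 and 490 CPM in ZNF687-depleted cells, against 371, 364 and 359 CPM in control cells (0.45 ± 0.09, adjusted p = 0.145).

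CXCR4, a chemokine receptor, had a log2 fold change of 0.70 ± 0.17 (adjusted p = 0.276). JUNB, which overlaps HOOK2 on the opposite strand, had 0.97 ± 0.19 (adjusted p = 0.136). The antisense transcript AC002310.1, which overlaps ZNF747, had 0.79 ± 0.14 (adjusted p = 0.0849). None of these 3 passed the test. In each the depleted libraries lay above all controls, which was a condition in their selection. Against the mean of the other 4 depletions of the set, FOS had 0.19 ± 0.16 (adjusted p = 0.739) and JUNB 0.49 ± 0.16 (adjusted p = 0.301).

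The partners of ZNF687 were measured next. ZMYND8 stood at 39.8 and 53.3 CPM in ZNF687-depleted cells, against 30.8, 47.3 and 47.1 CPM in control cells (0.24 ± 0.11, adjusted p = 0.588). ZNF592 had a log2 fold change of -0.22 ± 0.15 (adjusted p = 0.748) and ZNF532 one of -0.28 ± 0.13 (adjusted p = 0.608). No partner of the module passed the test. Of the 23 tested genes of the Z3 module and NuRD, ZNF687 alone was called, and 6 had a positive and 17 a negative fold change (median -0.06). RBBP7, a histone-binding subunit of NuRD, had the highest value of the list, 0.44 ± 0.12 (adjusted p = 0.289), with 542 and 505 CPM in ZNF687-depleted cells, against 426, 363 and 350 CPM in control cells.

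INTS13, the protein at the centre of the series, stood at 143.9 and 129.4 CPM in ZNF687-depleted cells, against 168.4, 129.6 and 130.4 CPM in control cells (-0.09 ± 0.12, adjusted p = 0.886). Of 29 Integrator subunits and factors of polymerase pausing, 0 were called, 0 had an unadjusted p under 0.05, and the median log2 fold change was -0.01. The list therefore lay at the level of all genes tested, whose median was 0.003.

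Several groups of short, abundant transcripts lay to the higher side without any member passing the test. All 37 tested replication-dependent histone genes, which supply chromatin during S phase, had a positive log2 fold change (median 0.36), and 17 had an unadjusted p under 0.05, where 3.9% of all genes were higher and 4.24% lower at that threshold. The median was 0.23 without ZNF687 replicate 1. H1-3, a linker histone, stood at 661 and 550 CPM in ZNF687-depleted cells, against 304.5, 398 and 414 CPM in control cells (0.71 ± 0.18, adjusted p = 0.283). All 80 tested ribosomal protein genes also had a positive value (median 0.21), with 5 at an unadjusted p under 0.05, a share close to that of all genes. The median was 0.33 with no number in the model. Of 14 small nuclear RNAs, the RNA parts of the spliceosome, 13 had a positive value (median 0.57), with 10 at an unadjusted p under 0.05. RNU4-1 stood at 163 and 59.1 CPM in ZNF687-depleted cells, against 100.1, 39.7 and 34.3 CPM in control cells (0.73 ± 0.21, adjusted p = 0.324). Its level followed the library number more than the siPOOL. Against the mean of the other 4 depletions the medians were 0.34 for histones, 0.26 for ribosomal proteins and 0.31 for small nuclear RNAs, with 0 members called.

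**Figure D3:**
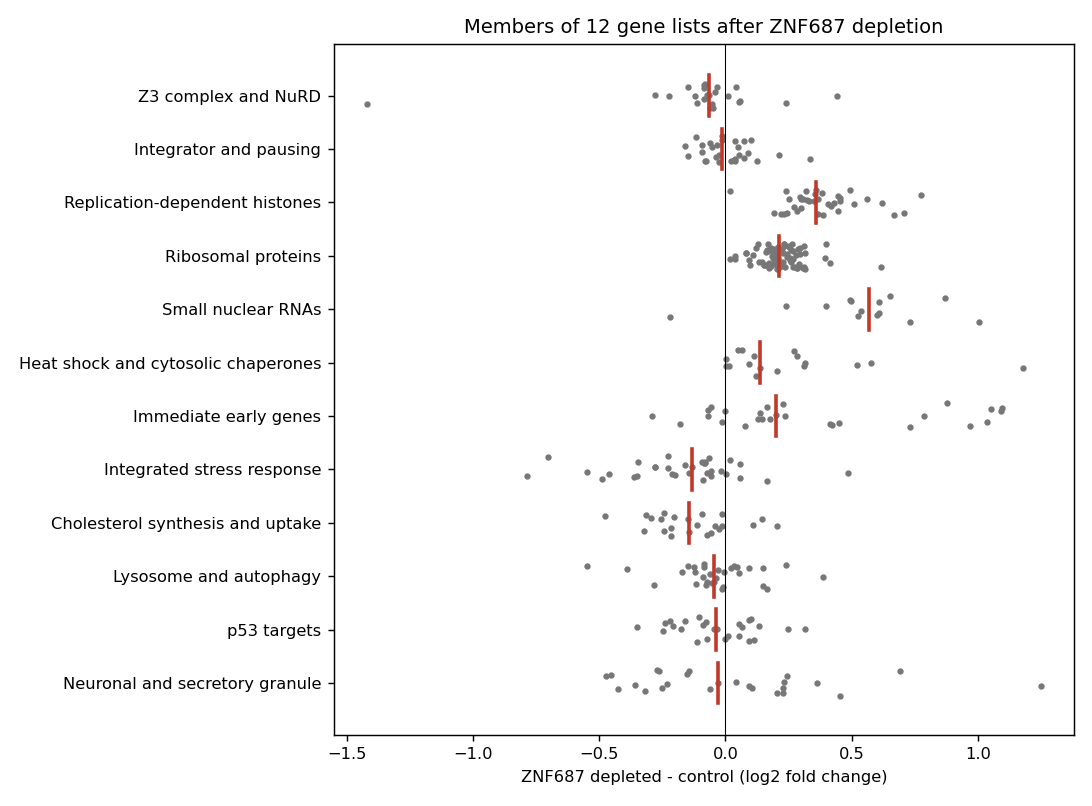
Log2 fold change of ZNF687-depleted over control cells for each tested member of 12 gene lists, with 1 grey point for each gene and a red bar at the list median. All histone and ribosomal protein points lie above 0, and the Integrator list is centred on 0.

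Gene length moved with these values. In 5 equal bins of well expressed genes by summed exon length the median log2 fold change was 0.09, 0.02, -0.01, -0.04 and -0.07, going from the shortest to the longest bin. With offsets for length, the median was 0.13 for histones, 0.17 for ribosomal proteins and 0.13 for small nuclear RNAs, and 31 of 37 histones were positive.

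Of 17 heat shock proteins and cytosolic chaperones, 17 had a positive value (median 0.14), and HSPB1 and HSPA1A had the lowest p-values. The median was 0.24 without control 1 and also without ZNF687 replicate 2, and 0.06 against the other 4 depletions. HSPA1A and HSPA1B are near-identical copies, so reads can be split between them. Of 27 immediate early genes, 20 had a positive value (median 0.20) and 8 had an unadjusted p under 0.05, against 3.9% of all genes higher at that threshold. The median was 0.13 without ZNF687 replicate 1 and 0.32 without ZNF687 replicate 2, and it was 0.13 against the other 4 depletions. FOS, JUNB and DUSP1, a phosphatase that inactivates MAP kinases, had the lowest p-values. DUSP1 stood at 30.3 and 23.2 CPM in ZNF687-depleted cells, against 20.6, 18.3 and 18.9 CPM in control cells (0.41 ± 0.10, adjusted p = 0.283).

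Genes of cholesterol synthesis and uptake lay to the lower side, with 20 of 23 negative (median -0.14) and 5 at an unadjusted p under 0.05, against 4.24% of all genes lower at that threshold. The median was -0.07 without control 1 and 0.005 against the other 4 depletions. HMGCS1, the enzyme that makes HMG-CoA, stood at 142 and 114 CPM in ZNF687-depleted cells, against 256, 138 and 132 CPM in control cells (-0.48 ± 0.15, adjusted p = 0.381). The difference of HMGCS1 was -0.84 in number 1 and -0.24 in number 2 libraries, and that of the list's median was -0.24 in number 1 and -0.06 in number 2.

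The integrated stress response, the program led by ATF4, went opposite ways in the numbers: the median difference was 0.27 in number 1 and -0.32 in number 2 libraries over 33 genes. MTHFD2, a mitochondrial folate enzyme, was lower in both, at 512 and 354 CPM in ZNF687-depleted cells, against 576, 539 and 592 CPM in control cells (-0.49 ± 0.13, adjusted p = 0.288). Targets of p53 had a median of -0.04 over 26 genes, lysosome and autophagy genes -0.04 over 31, and neuronal and secretory granule genes -0.03 over 25, with 0 called in each. Among processes linked to ZNF687, 0 of 31 genes of homologous recombination and break repair were called (median -0.03), and 0 of 20 tested genes of Paget disease and osteoclast regulation (median -0.02). DNA replication (median -0.01 over 32 genes) and mitosis (median 0.07 over 29) had 0 called as well. Since 0.037% of all genes were called, lists of this size would mostly hold 0 calls, and nothing is read from those counts. In the 35-library model described below, 4 of 37 histones, 2 of 17 chaperones and 2 of 27 immediate early genes were called higher. Lower calls there covered 3 of 31 lysosome and autophagy genes. These lists had 0 calls in the other direction, and other lists had at most 1 call per direction. Of all genes, 0.431% were called higher and 0.965% lower.

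To ask what set ZNF687 depletion apart from other depletions handled alongside it, it was compared with the mean of TSPYL2, ZEB1, ZNF608 and ZNF609 depletion. The control libraries enter this contrast through the number block and the shared spread. It called 32 genes (0.169%), 10 higher (0.0529%) and 22 lower (0.116%) in ZNF687 depletion. Without 1 control library it called 22 (control 1), 13 (control 2a) or 10 genes (control 2b), and without ZNF687 replicate 1 or 2 it called 2 or 1. Of the 32 genes, 6 were also called against control, but both contrasts use the same 2 ZNF687 libraries, so the overlap is no independent support.

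SMARCD2 (-1.29 ± 0.09, adjusted p = 1.74e-05) and ZNF687 (-1.44 ± 0.14, adjusted p = 7.98e-04) led the lower genes. USP12 (-0.78), SEMA3C (-0.82) and CEMIP2 (-0.71) were lower as well, and PHTF2 was higher (0.46). LBR missed the threshold in this contrast (adjusted p = 0.057). Genes called here but not against control included BMPER (-0.98 ± 0.13, adjusted p = 0.00844), TDG (-0.80 ± 0.11, adjusted p = 0.013) and HSPB1 (0.64 ± 0.08, adjusted p = 0.00844). WNT5A, a signalling ligand, was lower (-0.62 ± 0.11, adjusted p = 0.0436) and stood at 25.7 and 29.8 CPM in ZNF687-depleted cells, against 36.9, 50.3 and 49.3 CPM in control cells.

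Some calls of that contrast came with values close to control. USH1C stood at 5.85 and 5.36 CPM in ZNF687-depleted cells, against 5.51, 6.34 and 5.66 CPM in control cells, and differed by 0.76 ± 0.11 from the other depletions (adjusted p = 0.019). FCGRT, the neonatal Fc receptor, likewise differed by 0.78 ± 0.12 from the other depletions (adjusted p = 0.019) and by 0.02 from control.

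The other first-set depletions share the 3 control libraries, so their values are set side by side. SMARCD2 had a log2 fold change of -1.45 in ZNF687 depletion, -0.54 ± 0.10 in TSPYL2 depletion (adjusted p = 0.042) and -0.08 to 0.03 in the other 3. PHTF2 had 0.77 in ZNF687 depletion, 0.67 ± 0.09 in ZNF609 depletion (adjusted p = 0.0091), 0.32 ± 0.09 in ZEB1 depletion (adjusted p = 0.0931), 0.31 ± 0.09 in TSPYL2 depletion (adjusted p = 0.098) and -0.05 in ZNF608 depletion. LBR had -0.72 in ZNF687 depletion, -0.28 in TSPYL2, -0.12 in ZEB1, -0.34 in ZNF608 and -0.21 in ZNF609 depletion, of which the last 4 were not called. CEMIP2 had -0.75 in ZNF687 depletion and -0.76 ± 0.12 in ZEB1 depletion (adjusted p = 0.00492). SEMA3C had -0.76 in ZNF687 depletion and 0.52 ± 0.11 in ZNF609 depletion (adjusted p = 0.0694). USP12 had -0.88 in ZNF687 depletion and -0.45 ± 0.10 in ZNF609 depletion (adjusted p = 0.121).

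When all 35 libraries entered the blocked model, the same contrast called 269 genes (1.4%), 83 higher (0.431%) and 186 lower (0.965%), and all 7 genes above were among them. The first set varied more than the rest of the series, with a median residual variance of log2 CPM of 0.0341 against 0.0198, a ratio of 1.73, and this larger model assumes 1 spread for both. Its calls are given as a description and to set ZNF687 beside ZMYND8. Among those tested in both models, the median exon length was 3276 bases for the 82 higher genes and 6527 bases for the 185 lower genes, against 4244 bases for all genes tested, and 81.7% of the higher and 95.7% of the lower genes were protein coding, against 72.6% of all.

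ZMYND8 depletion offered a comparison with a partner of ZNF687 that shares no library with it. In that set ZMYND8 fell to 23.1 and 24.1 CPM in ZMYND8-depleted cells, against 45.8 and 44.9 CPM in its controls (-0.94 ± 0.10, adjusted p = 8.39e-07). ZNF687 stood at 65.2 and 75.0 CPM in ZMYND8-depleted cells, against 66.2 and 68.0 CPM in its controls (0.06 ± 0.12, adjusted p = 0.869). The 35-library model called 606 genes for ZMYND8 (3.14%), 327 higher (1.7%) and 279 lower (1.45%). The libraries of that set were numbered 3 and 4, and sets and numbers cannot be told apart.

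Some genes had nearly the same change in both depletions. PHTF2 rose by 0.77 ± 0.08 in ZNF687 depletion and by 0.76 ± 0.09 in ZMYND8 depletion (adjusted p = 5.19e-07 for ZNF687 and 5.46e-06 for ZMYND8), to 63.5 and 58.8 CPM in ZMYND8-depleted cells, against 38.8 and 33.2 CPM in its controls. The difference between the changes was 0.004, with a 95% interval of -0.24 to 0.25. SEMA3C had -0.76 ± 0.11 in ZNF687 depletion and -0.76 ± 0.12 in ZMYND8 depletion (adjusted p = 1.85e-04 for ZNF687 and 3.51e-04 for ZMYND8), and stood at 19.1 and 17.3 CPM in ZMYND8-depleted cells, against 29 and 32.9 CPM in its controls. Its difference was -0.002, with an interval of -0.34 to 0.33.

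Such levels were not limited to these 2 depletions. PHTF2 averaged 76.1 ± 3.30 CPM in HDGF, 65.1 ± 0.0707 in INTS13 and 63.9 ± 1.08 in ZNF655 depletion (SD, n = 2 each), against 41.2 ± 2.51 CPM in their controls (SD, n = 4). SEMA3C averaged 19.02 ± 2.43 CPM in INTS13 depletion (SD, n = 2), against 34.2 ± 2.21 CPM in its controls (SD, n = 4), and 18.6 ± 2.22 CPM in starved control cells (SD, n = 4). These levels are descriptions on the 35-library scale and were not tested here.

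BMPER had -0.90 ± 0.16 in ZNF687 depletion and -0.88 ± 0.19 in ZMYND8 depletion, with a difference of -0.03 and an interval of -0.53 to 0.47. HSPB1 had 0.57 ± 0.12 in ZNF687 and 0.51 ± 0.14 in ZMYND8 depletion (difference 0.07, interval -0.31 to 0.44). SNHG16 had 0.45 ± 0.07 in ZNF687 and 0.68 ± 0.08 in ZMYND8 depletion (difference -0.23, interval -0.44 to -0.02). RBBP7 had 0.44 ± 0.08 in ZNF687 and 0.63 ± 0.09 in ZMYND8 depletion. All 4 genes were called for both depletions in this model. Set against the mean of the other 4 first-set depletions, BMPER (-0.98, adjusted p = 0.00844) and HSPB1 (0.64, adjusted p = 0.00844) differed. SNHG16 (-0.10, adjusted p = 0.73) and RBBP7 (0.10, adjusted p = 0.797) were not called in that contrast.

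**Figure D4:**
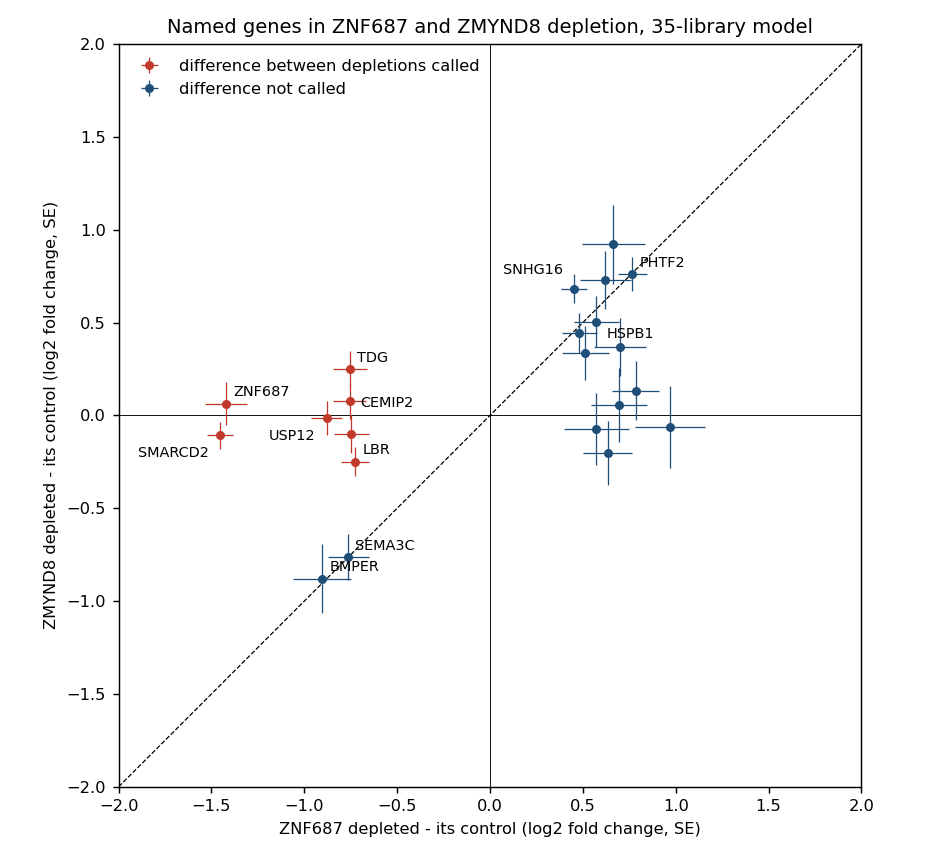
Log2 fold change after ZNF687 depletion (x axis) and after ZMYND8 depletion (y axis), each against its own controls, for 22 named genes with bars of 1 SE, from the 35-library model. PHTF2, SEMA3C and BMPER lie on the dashed line of equal change. SMARCD2, USP12 and CEMIP2 lie near 0 for ZMYND8, and TDG lies at 0.25 for ZMYND8.

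Other genes changed in ZNF687 depletion and differed from ZMYND8 depletion by a test of the difference itself. This test called 113 genes (0.586%), 26 with a higher (0.135%) and 87 with a lower change (0.451%) in ZNF687 depletion. SMARCD2 stood at 110.8 and 120.2 CPM in ZMYND8-depleted cells, against 125.3 and 123.5 CPM in its controls (-0.11 ± 0.07, adjusted p = 0.551), and its changes differed by -1.35 ± 0.10 (adjusted p = 1.72e-09; interval -1.55 to -1.14). USP12 stood at 42.2 and 42.2 CPM in ZMYND8-depleted cells, against 39.9 and 45.5 CPM in its controls, and its changes differed by -0.86 ± 0.12 (adjusted p = 2.16e-04). CEMIP2 stood at 35.1 and 35.6 CPM in ZMYND8-depleted cells, against 32.9 and 34.2 CPM in its controls, and its changes differed by -0.83 ± 0.13 (adjusted p = 6.04e-04).

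TDG differed by -1.003 ± 0.13 (adjusted p = 7.75e-05) and SOX4 by -0.65 ± 0.14 (adjusted p = 0.0223). Against the mean of the other 4 first-set depletions, SOX4 had -0.23 ± 0.11 (adjusted p = 0.522) and was not called. LBR had -0.25 ± 0.08 in ZMYND8 depletion (adjusted p = 0.0868) against -0.73 ± 0.07 in ZNF687 depletion, a difference of -0.48 ± 0.11 (adjusted p = 0.032). Lower LBR levels also occurred in other depletions. LBR averaged 388.7 ± 2.40 CPM in INTS13, 417.5 ± 13.4 in HDGF and 413.1 ± 9.90 in ZNF655 depletion (SD, n = 2 each). Their controls averaged 554.4 ± 29.7 CPM (SD, n = 4), and these levels were not tested here. SMARCD2, which had the largest fall of the 7 called genes, was thus among those whose change differed between the depletions.

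Counted over the 266 genes called for ZNF687 in this model, with both targets left out, 182 (68.4%) had the same sign in ZMYND8 depletion, against 57.1% of the 18429 genes tested. Of the 82 higher genes, 31 (37.8%) were called for ZMYND8, 29 of them in the same direction. Of the 184 lower genes, 28 (15.2%) were called for ZMYND8, 23 of them in the same direction. Over all genes, 601 (3.26%) were called for ZMYND8. The 59 genes called for both are 22.2% of the ZNF687 genes and 9.82% of the ZMYND8 genes. The test of the difference called 5 of the 82 higher and 38 of the 184 lower genes, against 110 of the 18429 genes tested. The 266 genes were chosen for their change in ZNF687 depletion, which enters that difference, so nothing is read from these counts. Without the number in the model, 48 genes were called for ZNF687 and 143 for ZMYND8, with 7 in common: BMPER, EFR3A, FBXO28, PHTF2, RBBP7, SEMA3C and SNHG16. These 7 were 14.6% of those ZNF687 genes and 4.9% of those ZMYND8 genes, and 6 had the same sign. EFR3A had opposite signs in the blocked model, -0.46 in ZNF687 and 0.43 in ZMYND8 depletion.

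Across 11415 genes above the same abundance floor, the 2 sets of fold changes correlated with r = 0.284, as a description of these libraries. Genes called for both with the same sign included YIPF6, a membrane protein of the Golgi (-0.51 in ZNF687 and -0.41 in ZMYND8 depletion), JMJD6, a dioxygenase (0.54 in ZNF687 and 0.52 in ZMYND8 depletion), and the histone gene H3C13 (0.62 in ZNF687 and 0.73 in ZMYND8 depletion). ANKRD52, a subunit of a protein phosphatase complex, had opposite signs, -0.59 ± 0.14 in ZNF687 depletion and 0.61 in ZMYND8 depletion (adjusted p of the difference 0.00157). Against the mean of the other 4 first-set depletions, YIPF6 had -0.19 (adjusted p = 0.522), JMJD6 0.11 (adjusted p = 0.796) and H3C13 0.16 (adjusted p = 0.765), so none of these 3 was called there. YIPF6, JMJD6 and ANKRD52 were chosen after their values were seen.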

How the data were processed

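Total RNA of HEK293T cells was depleted of ribosomal RNA and sequenced as stranded libraries. The authors deposited raw read counts per gene in 1 table of 35 libraries and 60665 genes, made before removal of duplicates. Per the submitters' processing notes FastQC, cutadapt, STAR and the hg38 build were used; the counting tool and its strand setting are not given in the sources used here. All 37 mitochondrial genes had 0 counts.

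Libraries were grouped by their labels. The control libraries are numbered 1, 2a and 2b in the descriptions and differently in the titles, and the descriptions were followed. The numbers paired the libraries: in 15 of 15 pairs of groups the number 1 minus number 2 differences correlated above 0.1 across 11419 genes (median 0.749, lowest 0.422).

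Genes were filtered with filterByExpr, scaled by TMM and fitted with edgeR 4.0.16 (R 4.3.3, quasi-likelihood, group plus number) over the 13 first-set libraries, with 6 residual degrees of freedom. This left 18913 genes, or 19275 with 35 libraries. Adjusted p-values are Benjamini-Hochberg over all genes tested, two-sided, and genes under 0.05 were called. Biotypes and positions are from GENCODE release 29. Steps were tested on simulated data.

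The genes named were the module's members, all called genes, in each direction those with the lowest p or the largest change that had a mean log2 CPM of at least 2, no overlap and the same sign in both numbers, and the 3 lowest p-values of each of the gene lists. Some of these are not reported here, and WNT5A, USH1C and FCGRT were picked from the contrast with the other depletions after their values were seen. Members and lists were chosen with earlier results of these data known. The labels do not say whether libraries of a group are separate cultures, and p-values then reflect the spread among these libraries, which may be technical. Alternatives included DESeq2 1.42.0, another scaling, no filter, other blocks and library sets and omission of each library, and length offsets chosen after seeing the data.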

Additional observations from a re-analysis of the deposited data

Results flagged for a closer look

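For 4 of the 6 called genes other than the siPOOL target, the change after ZNF687 depletion differed from the change after ZMYND8 depletion by a test of the difference (edgeR, 35 libraries, adjusted over all genes). Over all genes tested, that test called 113 (0.586%). The 6 genes were chosen for their change in ZNF687 depletion, which enters the difference, so nothing is read from the share of 4 in 6. SMARCD2 differed by -1.35 ± 0.10 (adjusted p = 1.72e-09), USP12 by -0.86 ± 0.12 (adjusted p = 2.16e-04), CEMIP2 by -0.83 ± 0.13 (adjusted p = 6.04e-04) and LBR by -0.48 ± 0.11 (adjusted p = 0.032). ZNF687 itself differed by -1.49 ± 0.16 (adjusted p = 2.27e-06), as the target in 1 depletion and not in the other. Each of these 5 was lower in both ZNF687-depleted libraries than in all 3 controls. The ZNF687 libraries carried numbers 1 and 2 and the ZMYND8 libraries numbers 3 and 4, so the set of libraries and the siPOOL cannot be told apart, beyond what each set's own controls take up.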

How the results depend on the processing

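The count of genes called after ZNF687 depletion depended on the model. None of 55 named genes tested against control changed sign under any of 15 alternatives. ZNF687 itself was not among the 55. Apart from ZMYND8, ZNF592, ZNF532 and INTS13, these were picked by call, by low p or for the same sign in both numbers. Stable signs were thus favoured by the choice, and nothing is read from them. Against 7 genes, 158 were called with no filter on low counts, 76 with DESeq2's Wald test, 269 with 35 libraries and the replicate block, 204 with the 5 libraries alone and the block, 26 with transcript length offsets and 49 with 35 libraries and no block. Fewer were called with no replicate block (1), the block by the titles' numbering (2) and controls 2a and 2b summed (3), and omission of each library left 1 to 5. SMARCD2 kept its call in all 15. The ZNF687 level missed the threshold with no replicate block (-1.50, adjusted p = 0.503) and without ZNF687 replicate 2, and its fold change without 1 library was between -1.58 and -1.23. Against the other 4 depletions (32 genes), the count was 267 with no filter, 169 with DESeq2's Wald test, 1 with no block, 2 by the titles' numbering, 560 with 35 libraries and the block, 89 without the block, 69 with length offsets and 1 to 22 without 1 library. The difference from ZMYND8 depletion (113 genes) was called for 17 with no replicate block, 227 with no filter and 25 to 93 without 1 library. Differences close to 0 changed sign: that of PHTF2 ran from -0.108 to 0.139 without 1 library, and that of SEMA3C was 0.0113 with no block, 0.00656 with DESeq2 size factors, 0.0237 with no filter and -0.106 to 0.145 without 1 library. The cause was not tested. Only control 1 stood beside ZNF687 library 1. Of simulated 1.5-fold changes in well expressed genes, 61.2% were called at this depth and with the model's own spread. Far more genes were changed in that simulation than were called in the data, which makes the adjusted threshold easier to pass.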
